A study of Canis lupus familiaris with 6 samples.

Results

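IDO1 and the genes that lead from it through kynurenine to the aryl hydrocarbon receptor (AHR) were followed in RasV12 cells that had grown alone or among normal epithelial cells. The set holds 10 genes chosen by name: the tryptophan-breaking enzymes IDO1, TDO2, AFMID, KYNU, KMO and HAAO, the tryptophanyl-tRNA synthetase WARS, the receptor AHR, and its classical targets CYP1A1 and CYP1B1. Probes carrying these names were taken from the array's annotation, which gave 14 of the 43603 probes and 9 of the 10 genes, among 13467 genes named on the array, while no probe carried the name AFMID. The choice was made with the mixed-against-alone comparison already known, so the members' differences are given here as a description and without p-values.

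The RasV12 cells are MDCK-pTR GFP-RasV12 cells, a Madin-Darby canine kidney epithelial line in which tetracycline turns on a GFP-tagged oncogenic Ras, and both groups were given tetracycline, for 24 h. The cells with GFP were then sorted, which gave 3 samples of RasV12 cells alone and 3 samples from mixed culture with normal MDCK cells, and each RNA was hybridised to 1 array in 1 colour. The methods describe RasV12 cells without further alteration, and the sample titles name only MDCK single or mix culture. In the labels, however, the text on RNA extraction, the same for both groups, speaks of cells with mCherry-β-catenin Δ131 as well. The methods and the labels of mixed replicates 1 and 3 put normal and RasV12 cells at 10 to 1, but mixed replicate 2 is labelled as 100 to 1. The labels do not state that the 3 samples of a group came from separate cultures, so p-values measure only the spread between these samples, which may be technical. The arrays of cells alone shared one slide and the mixed arrays another, so the effects of slide and of culture cannot be told apart. Fewer cells of a kind and less RNA per cell also cannot be told apart in such pooled samples. Of 16 probes for epithelial markers, 14 were well above background on all 6 arrays. Of 24 probes for leukocyte markers, 14 were well above background on no array, among them all probes of PTPRC, the pan-leukocyte antigen, and of CD3D, CD163 and LYZ. Probes of CD14, CD68 and CD79A were among those well above it on every array. The summed signal of the leukocyte probes was 2.08 to 2.25 times the array's 75th percentile in cells alone and 2.24 to 2.37 times in mixed culture. The fibroblast and endothelial probes summed to 5.58 to 7.83 and to 6.09 to 7.91, with 17 of 26 well above background on no array. The part that other cells might have in the results below was not tested.

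IDO1 and TDO2 carry out the first and limiting step of the kynurenine pathway, opening the ring of tryptophan. The formamidase AFMID then releases kynurenine, which KYNU cleaves and KMO hydroxylates. HAAO acts on a later product, on the way towards quinolinate and NAD. Kynurenine and related tryptophan products bind AHR, a ligand-activated transcription factor that pairs with ARNT and switches on CYP1A1, CYP1B1 and its own repressor AHRR. IDO1 is best known as an interferon-induced enzyme that starves microbes and T cells of tryptophan, and WARS, which loads tryptophan onto its tRNA, is induced alongside it in many cells.

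The probes decide what could be seen of each gene. On the canFam3 build, the IDO1 probe lies on the minus strand at chr16:25392030-25392089, and the only IDO2 probe lies on the same strand at chr16:25319449-25319508, which leaves 72.5 kb between them. Both are shown because the results turn on this pair of neighbouring paralogues, with capitals marking their longest shared run, 13 bases.
IDO1: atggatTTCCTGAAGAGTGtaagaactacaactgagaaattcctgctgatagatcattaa
IDO2: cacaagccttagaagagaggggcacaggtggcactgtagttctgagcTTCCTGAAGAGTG
The IDO1 probe reads in 1 open frame that closes with its last 3 bases, a stop codon. No run of 25 bases of the IDO1 probe occurs in any other probe of the array.

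The probes of KYNU and CYP1A1, shown because they bear on the later enzymes and on the receptor's best known target, each span more of the genome than their 60 bases and so cross an exon junction. KYNU is at chr19:45109688-45110541 on the plus strand, a span of 854 bases, and CYP1A1 at chr30:37795054-37795205 on the minus strand, a span of 152 bases.
KYNU: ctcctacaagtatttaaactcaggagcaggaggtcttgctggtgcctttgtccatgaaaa
CYP1A1: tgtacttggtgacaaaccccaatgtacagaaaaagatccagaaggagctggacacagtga
AHR and CYP1B1 had 2 and 4 probes. The second AHR probe, at chr14:31791005-31791064 on the plus strand, and the first CYP1B1 probe, at chr17:30273309-30273368 on the minus strand, stand for them here.
AHR probe 2: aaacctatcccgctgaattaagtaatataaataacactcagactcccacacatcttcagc
CYP1B1 probe 1: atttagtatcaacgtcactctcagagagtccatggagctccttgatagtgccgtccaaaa
WARS also had 2 probes, but they overlap by 59 bases and count as 1 measurement. None of the other member probes shares 25 bases with another probe.

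Signals are given either as the scanner's processed intensity or as log2 of that intensity minus the log2 of the array's 75th percentile, which was 592 to 700 units. On this scale 0 is the 75th percentile of the array, and a difference of 1 is a doubling. A probe was compared where the scanner software found it well above background throughout 1 group or both, which held for 26535 probes. Of the 14 member probes 11 passed, for 6 genes: IDO1, KYNU, KMO, WARS, AHR and CYP1B1. At a Benjamini-Hochberg adjusted p under 0.05 in limma's moderated test (two-sided), 11.2% of all probes compared were called, 5.5% as higher and 5.72% as lower in mixed culture. Among the members 2 of the 11 probes were called, the IDO1 probe and CYP1B1 probe 3, both higher in mixed culture. Nothing is read from this count, since the members were chosen with this comparison in view.

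**Figure D1:**
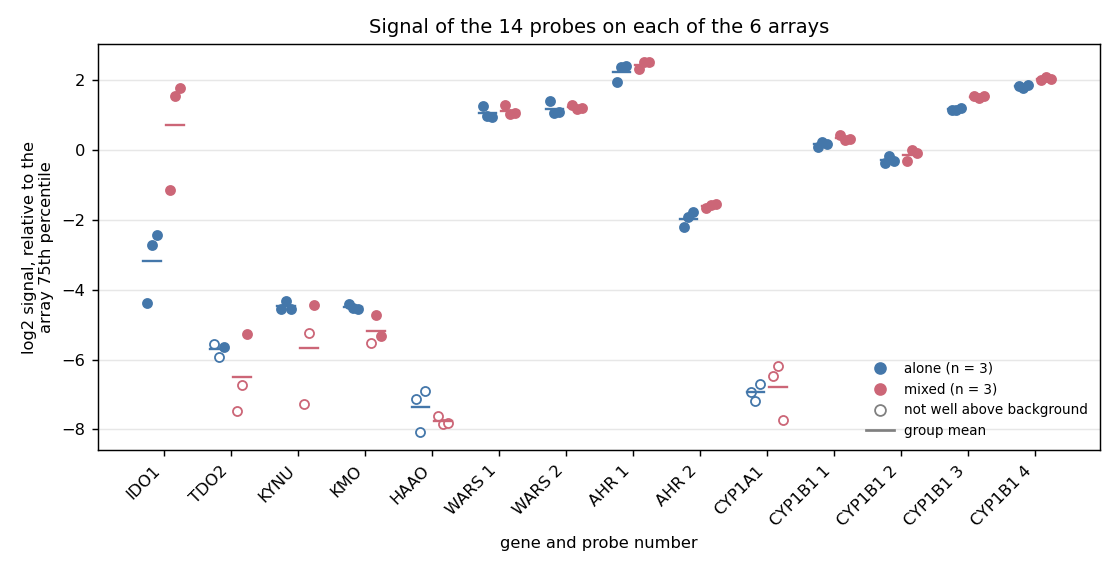
Each point is 1 probe on 1 array, on a log2 scale relative to the array's 75th percentile, for cells alone (blue, n = 3) and mixed culture (red, n = 3), with the group mean as a line and open points where the probe was not well above background. The IDO1 points lie furthest apart within and between groups, those of WARS overlap, and TDO2, HAAO and CYP1A1 lie low with few or no filled points.

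IDO1 gave the largest difference of the set, and its level varied widely within both groups. Its intensity was 29.8, 105 and 119 units on the arrays of alone replicates 1 to 3, and 283, 1872 and 2023 units on those of mixed replicates 1 to 3. All 6 arrays were well above background, and the groups did not overlap. The lowest mixed array stood 2.43-fold above the highest array of cells alone after scaling.

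On the log2 scale the mean was -3.18 ± 1.04 (SD, n = 3) in cells alone and 0.71 ± 1.63 (SD, n = 3) in mixed culture. The difference was 3.90 with an SE of 0.87, or 14.9-fold. It was the seventh largest rise among the 26535 probes compared, where the median difference was -0.0037 and the median absolute difference 0.17. The SD of IDO1 was larger than that of 99.6% of probes in cells alone and of 99.96% in mixed culture, against median SDs of 0.13 and 0.10.

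In each group replicate 1 had the lowest IDO1 signal. The highest array was 3.99-fold above the lowest in cells alone and 7.16-fold in mixed culture. Taken between arrays of the same replicate number, the differences were 3.22, 4.26 and 4.21 on the log2 scale, that is 9.3-, 19.2- and 18.5-fold. Their SD was 0.59, smaller than the SD of either group. With the replicate number as a block, limma's moderated SE of the IDO1 difference was 0.23. Both this SE and the one of 0.87 without the block borrow variance from all probes. Each is smaller than the IDO1 values alone would give. Replicate 1 was the lowest array of both groups for 20.5% of all probes compared. Mixed replicate 2, whose label gives the other cell ratio, was close to mixed replicate 3.

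Leaving out single arrays moved the IDO1 difference between 3.30 and 4.83. It was called only in the fit without mixed replicate 1, with a difference of 4.83. In the fits without alone replicate 1, 2 or 3 the differences were 3.30, 4.12 and 4.27, and in those without mixed replicate 2 or 3 they were 3.49 and 3.37, none of them called. Scaled to the spike-in controls rather than to the 75th percentile, the difference was 3.74 and was not called, nor was it called by the methods' t-test or without a filter on dim probes. Spike-in scaling shifted the mixed-minus-alone difference of every probe by -0.16. Relative to the 75th percentile, the highest signed mixed-minus-alone difference among the 8 spike-ins was 0.23.

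**Figure D2:**
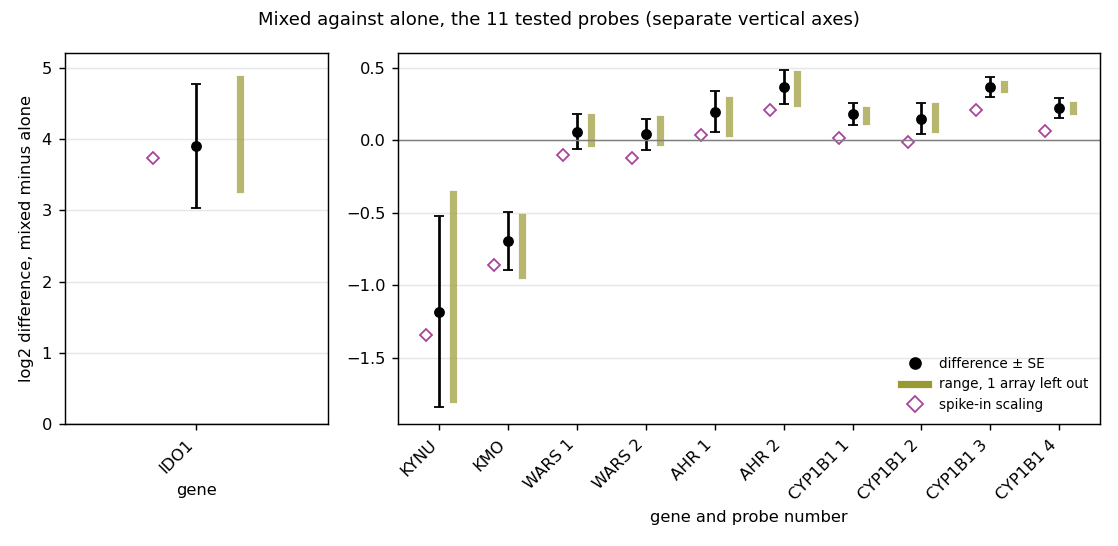
Log2 difference of mixed minus alone for the 11 probes compared, with IDO1 in its own panel because its vertical axis differs. Black points are the difference with its SE, bars the range when 1 array was left out, and diamonds the difference under spike-in scaling, which puts both WARS probes and CYP1B1 probe 2 below 0. The KYNU and KMO values rest in part on mixed arrays not well above background.

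The other enzymes of the pathway were dim. TDO2, which takes the same step as IDO1 mainly in liver, had intensities of 13.3, 11.4 and 12.9 units in cells alone and 3.56, 6.13 and 15.4 units in mixed culture. It was well above background on 1 array of each group and was not compared. HAAO, the dioxygenase that leads to quinolinate, lay between 2.60 and 5.36 units and was well above background on none of the 6 arrays.

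KYNU, the kynureninase, stood well above background in all 3 samples of cells alone, at 26.1, 35.0 and 27.6 units. In mixed culture it read 4.05, 17.1 and 27.0 units, and was well above background only in replicate 3. The groups overlapped on the log2 scale. The fitted difference was -1.18 with an SE of 0.66 and was not called. It rests on 2 mixed values that were not well above background, so its size is not settled by these arrays. Without mixed replicate 1 the difference was -0.37, and with normexp background correction it was -0.17.

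KMO, the kynurenine hydroxylase, read 29.0, 30.6 and 27.5 units in cells alone and 13.7, 24.5 and 14.8 units in mixed culture, where replicate 1 was not well above background. Every mixed array was below every array of cells alone, as was so for 19.4% of all probes compared. KMO and KYNU passed the filter on dim probes only through the cells alone, where they read higher. The filter therefore favours this direction for both, and nothing is read from it. The fitted difference, which rests in part on that array, was -0.70 with an SE of 0.20 and was not called. With normexp correction it was -0.13. Both enzymes act on kynurenine itself, and neither read above 35.0 units, where the lowest signal called well above background was 9.15 to 14.6 units on the 6 arrays.

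WARS was bright and nearly level. Its first probe read 1483, 1373 and 1225 units in cells alone and 1522, 1324 and 1219 units in mixed culture, and the groups overlapped. The differences of the overlapping probes were 0.06 with an SE of 0.12 and 0.04 with an SE of 0.11. Under spike-in scaling they were -0.10 and -0.12, so that their sign depends on the scaling.

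AHR was read by 2 probes some distance apart on the same strand. Probe 1 was bright, with log2 levels of 1.94, 2.37 and 2.39 in cells alone and 2.30, 2.50 and 2.50 in mixed culture, and the groups overlapped. Probe 2 was dimmer, at -2.20, -1.92 and -1.79 in cells alone and -1.66, -1.58 and -1.56 in mixed culture, with every mixed array above every array of cells alone. The differences were 0.20 with an SE of 0.14 and 0.37 with an SE of 0.12, and neither was called. Under spike-in scaling they were 0.04 and 0.21, and with normexp correction probe 2 was called at 0.31.

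The classical AHR targets differed in whether they could be measured at all. CYP1A1, the monooxygenase whose induction is the standard readout of AHR activity, read 2.80 to 8.91 units and was well above background on none of the 6 arrays. Its intensities were 5.05, 4.79 and 6.21 units in cells alone and 7.11, 8.91 and 2.80 units in mixed culture. These values set only a bound, and no difference is given.

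CYP1B1, a related monooxygenase, was well above background on all 6 arrays with each of its 4 probes. Probe 3 had log2 levels of 1.13, 1.14 and 1.19 in cells alone and 1.55, 1.49 and 1.53 in mixed culture. The groups did not overlap, and the difference was 0.37 with an SE of 0.07, or 1.29-fold. Probe 4 read 1.82, 1.77 and 1.85 in cells alone and 2.01, 2.07 and 2.04 in mixed culture, a difference of 0.22 with an SE of 0.07. The mixed arrays of probe 4 too were all above those of cells alone.

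Probes 1 and 2 of CYP1B1 differed by 0.18 with an SE of 0.08 and by 0.15 with an SE of 0.11, and only probe 2 overlapped between groups. The 4 differences were thus all above 0, but under spike-in scaling they were 0.02, -0.01, 0.21 and 0.06. Probe 3 was the only one called, although normexp correction added probe 4. Probe 3 was no longer called without alone replicate 2 or 3 or without mixed replicate 2 or 3, where its difference still lay between 0.36 and 0.39. In all, 5 of the 11 member probes had every mixed array above the cells alone and 1, that of KMO, had every mixed array below. Over all probes compared the shares were 17.8% and 19.4%, and 37.2% did not overlap in either direction.

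Other genes of the pathway were taken from 7 lists of known roles, 113 genes with a probe in all, which were not picked by how they moved but were drawn up with earlier results of these data known. Of their 186 probes compared, 5 were called higher and 7 lower in mixed culture, or 6.45% against 11.2% of all probes. The median difference was -0.02. The counts rest on single arrays: without alone replicate 1 there were 42 calls, and without alone replicate 2 or 3 or mixed replicate 2 or 3 there were none. Under spike-in scaling the calls that remained were those of IDO2, ARNT2, EREG and a CCBL2 probe.

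**Figure D3:**
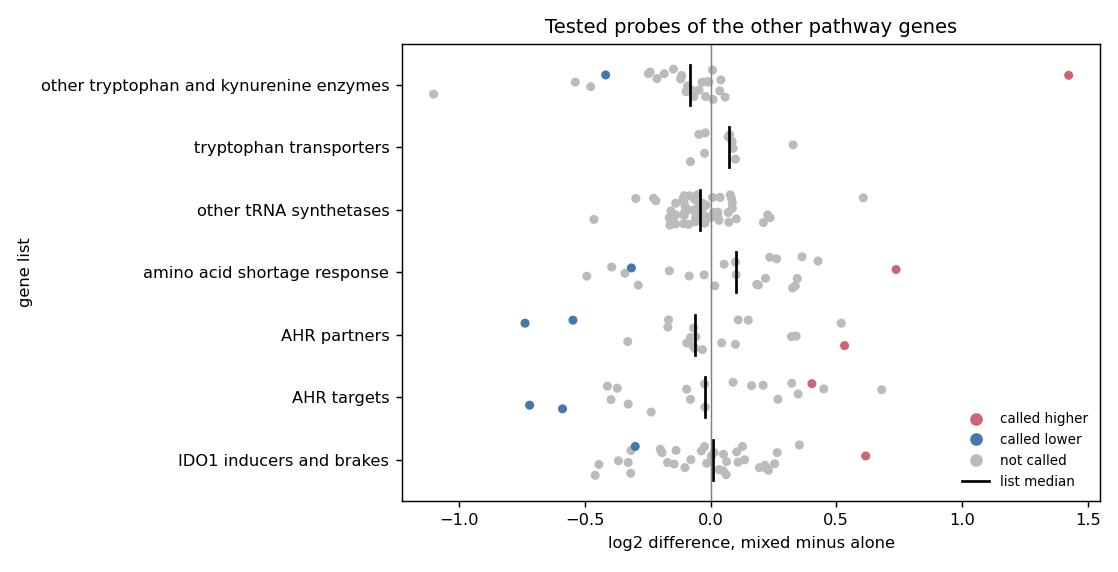
Log2 difference of mixed minus alone for each probe compared in the 7 lists of other pathway genes, 1 row per list, coloured where it was called higher (red) or lower (blue), with the list median as a black line. IDO2 stands furthest to the right at 1.42, and every list median lies between -0.08 and 0.10.

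Of the other tryptophan and kynurenine enzymes, 26 probes of 16 genes were compared, 1 was called higher and 1 lower, and the median difference was -0.08. The one called higher was IDO2, the paralogue of IDO1 with low activity on tryptophan. Its intensity was 316, 203 and 246 units in cells alone and 558, 705 and 674 units in mixed culture, and the groups did not overlap. The difference was 1.42 with an SE of 0.21, or 2.68-fold, with an adjusted p of 0.0186 in limma. Unlike for IDO1, replicate 1 of cells alone was the highest of its group. Across the 14 alternative settings the IDO2 difference stayed between 1.22 and 1.63, but it was called in only 8 of them. The call was lost with the methods' t-test, at an adjusted p of 0.0693, without a filter, at 0.0754, and without alone replicate 2 or 3 or mixed replicate 2 or 3, where limma's adjusted p was 0.0683 to 0.0869.

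The one called lower was a probe of CCBL2, a kynurenine aminotransferase, at -0.42 with an SE of 0.07 and an adjusted p of 0.0193 in limma. Its other 2 probes differed by -0.18 and -0.24 and were not called. IL4I1, a secreted oxidase that turns tryptophan into AHR ligands, was singled out after its values were seen. Its log2 levels were -3.23, -2.15 and -2.12 in cells alone and -3.75, -3.55 and -3.51 in mixed culture, and every mixed array was below the cells alone. The difference was -1.10 with an SE of 0.30, with an adjusted p of 0.0612 in limma and of 0.0440 with the replicate number as a block. The aminotransferase AADAT, singled out in the same way, differed by -0.54, with adjusted p-values of 0.0990 and 0.0389 in these fits.

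Neither the transporters of tryptophan nor the other tRNA synthetases had a call in limma. For the transporters 10 probes of 7 genes were compared, with a median of 0.07, and 1 passed an unadjusted p of 0.05. For the synthetases and their scaffold proteins 56 probes of 23 genes were compared, with a median of -0.04, and 8 passed the unadjusted threshold. After adjustment the methods' t-test gave 0 calls in either list. The differences of the synthetase probes ran from -0.46 to 0.61, a range in which both WARS probes lie near the middle.

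The amino acid shortage response is the arm by which cells sense uncharged tRNA through the kinase EIF2AK4 and the factor ATF4. Of its 23 probes compared 1 was called higher and 1 lower, with a median of 0.10. ATF3, a stress-induced transcription factor, rose by 0.74 with an SE of 0.13 and an adjusted p of 0.0245 in limma. Under spike-in scaling the ATF3 difference was 0.58 with an adjusted p of 0.0621 in limma, and the methods' t-test gave an adjusted p of 0.0779. Probe 1 of EIF2S1, the initiation factor that the kinase phosphorylates, fell by 0.31 with an adjusted p of 0.0466 in limma, which became 0.0596 with the replicate block. EIF2S1 probes 3 and 4 differed by -0.29 and -0.49 and were not called, with adjusted p-values of 0.0756 and 0.113 in limma. The 3 probes of ATF4 itself differed by 0.05, 0.19 and 0.10 and overlapped between groups.

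Among the partners of AHR, 1 of 20 probes was called higher and 2 lower, with a median of -0.06. ARNT, the obligate partner, differed by -0.33 with an SE of 0.10 and an adjusted p of 0.0736 in limma, with every mixed array below the cells alone. Its relative ARNT2 fell by 0.74 with an SE of 0.09 and an adjusted p of 0.0140. A probe of HSP90AA1, a chaperone that holds unliganded AHR, fell by 0.55 with an adjusted p of 0.0254, while the other differed by -0.17. The HSP90AA1 call was lost under spike-in scaling, at an adjusted p of 0.0664 in limma, with the methods' t-test, at 0.0695, and in all fits that left out 1 array except the one without alone replicate 1. The coactivator NCOA2 rose by 0.53 at probe 1, with an adjusted p of 0.0348 in limma and of 0.0614 with the replicate block. With normexp correction the probe 1 difference was 0.20 and not called. NCOA2 probe 2 differed by 0.52 and was not called, with an adjusted p of 0.0832 in limma.

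Among the other AHR targets, 1 of 20 probes was called higher and 2 lower, with a median of -0.02. CYP1A2, the close relative of CYP1A1, was well above background on none of the 6 arrays with either probe. AHRR, the repressor that AHR induces, differed by -0.09 with an adjusted p of 0.710 in limma, near the background at 13.0 to 18.1 units. The 3 probes of TIPARP, an AHR-induced ribosyltransferase, differed by -0.24, -0.40 and -0.37 with adjusted p-values of 0.307, 0.225 and 0.0612 in limma.

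EREG, an EGF-receptor ligand, fell by 0.72 with an SE of 0.06 and an adjusted p of 0.0103 in limma. CCND1, cyclin D1, fell by 0.59 with an adjusted p of 0.0366, which became 0.0633 with the replicate block. NFE2L2, the master regulator of antioxidant genes, rose by 0.40 at probe 1 with an adjusted p of 0.0457, which became 0.0755 with the block. Its probes 2 and 3 differed by 0.16 and 0.32, with adjusted p-values of 0.439 and 0.0680 in limma. The quinone reductase NQO1 differed by 0.21 and 0.45 at its 2 probes and overlapped between groups, and probe 2 had an adjusted p of 0.195 in limma and of 0.0416 with the block. The glucuronosyltransferase UGT1A6 differed by 0.68, with adjusted p-values of 0.0767 and 0.0468 in these fits.

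Genes that induce or restrain IDO1 had 36 probes compared, of which 1 was called higher and 1 lower, with a median of 0.01. IRF1, a transcription factor of the interferon response, differed by 0.10 with an adjusted p of 0.632 in limma. One of 4 probes of STAT3 fell by 0.30 with an adjusted p of 0.0447, which became 0.0604 with the replicate block. The others differed by 0.01, 0.03 and -0.14 and were not called. JAK2 and TGFB1, like NQO1 and UGT1A6 singled out because the block changed their calls, differed by -0.46 and -0.44, with adjusted p-values of 0.0954 and 0.100 without the block and of 0.0353 and 0.0424 with it.

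The genes whose pattern over the 6 arrays was nearest to that of IDO1 were found by the root mean square distance between log2 values centred on each probe's mean, over 16168 other named probes of 9908 genes. The nearest were ADAMTS1, a secreted metalloprotease, at 0.50 and DLA-DQB1, a class II antigen-presenting chain, at 0.53, where the median distance was 2.26. They were followed by ANTXR2 at 0.85, the acute-phase protein SAA1 at 0.91, the tight junction protein CLDN2 at 0.95 and the potassium channel KCNJ16 at 1.04. CAMK1D and HLA-DRB1, another class II chain, both lay at 1.05, the protease inhibitor SLPI at 1.09 and SYT13 at 1.11.

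**Figure D4:**
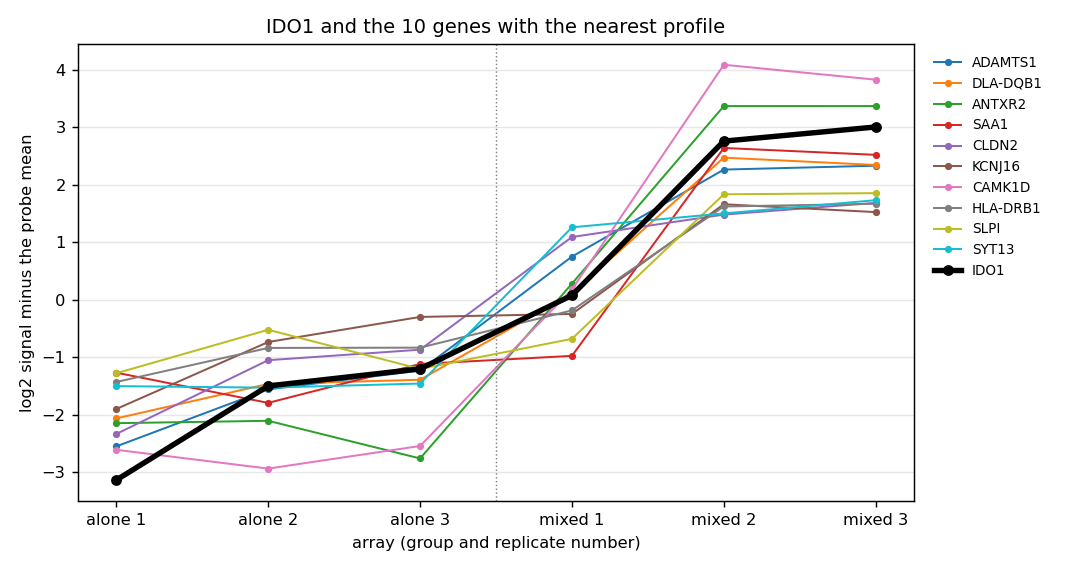
Log2 signal on each of the 6 arrays after subtracting the probe's mean, for IDO1 (black) and the 10 genes with the smallest root mean square distance to it (colours). All 11 lines have their lowest mixed value in replicate 1, and IDO1 has the lowest value of all on the array of alone replicate 1. For ADAMTS1, DLA-DQB1, ANTXR2, CLDN2, KCNJ16 and CAMK1D, some or all points of cells alone were not well above background.

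The share of IDO1's within-group pattern varied among these genes. Mixed replicate 1 was the lowest mixed array for all 10, against 39.3% of all probes compared, and this follows in part from how they were chosen. Replicate 1 was the lowest of both groups for 6 of the 10, but this count rests in part on arrays not well above background. Among these 6 genes, ADAMTS1, DLA-DQB1, CLDN2 and KCNJ16 read 6.29, 11.1, 5.81 and 8.42 units on alone replicate 1. There the lowest signal called well above background was 12.9 units. The rest of the 6, HLA-DRB1 and SLPI, were well above background on every array, though SLPI read only 14.2 units on alone replicate 1. HLA-DRB1 was bright, at 1903, 3242 and 2999 units in cells alone and 4600, 16607 and 15633 units in mixed culture. ANTXR2 and CAMK1D were well above background on no array of cells alone. DLA-DQB1, for example, read 11.1, 19.0 and 18.4 units in cells alone and 51.1, 271 and 226 units in mixed culture. The same arrays were low as for IDO1, but the low array of cells alone was not well above background. SYT13 read 97.0, 108 and 104 units in cells alone and 673, 819 and 875 units in mixed culture. After scaling, its cells alone were nearly level at log2 levels of -2.67, -2.70 and -2.63, with replicate 2 the lowest, unlike IDO1. SAA1 read 34.3, 26.9 and 39.6 units in cells alone and 42.8, 542 and 454 units in mixed culture, so that mixed replicate 1 stood close to the cells alone.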

How the data were processed

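RNA of sorted GFP-positive RasV12 cells in 3 samples of cells alone and 3 of mixed culture was measured on 1-colour Agilent canine arrays. The authors deposited, per array, the scanner software's output (Agilent Feature Extraction 10.10.1.1) with an intensity per spot, corrected for background within the array, and a table of log2 values. That deposited log2 table holds 26529 probes and equals log2 of the processed intensity minus a constant within about 0.001 of the array's 75th percentile, with column medians of -0.833 to -0.78. Its normalization is not given in the sources used here.

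Control spots and spots with outlier flags were left out, spots of a probe averaged, and log2 intensity taken minus each array's 75th percentile. Probes that were well above background throughout 1 group or both were tested with limma 3.58.1 (lmFit, eBayes, Benjamini-Hochberg) in R 4.3.3. Tables and plots were made with Python 3.11.15, pandas 2.3.3, numpy 2.4.6 and matplotlib 3.10.9. The number of arrays limits the precision. Tested on simulated data for mixed against alone with 26529 probes, of which 200 changed, the procedure recovered 87% of 2-fold and 92% of 4-fold changes with 4 false calls. The simulated noise was independent for each probe and array, with the same SD in both groups. It held no effect shared by a slide or a replicate number, so these rates need not hold for the real arrays. The changed probes were drawn at random, so the rates do not describe a probe as variable as IDO1.

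The members and gene lists were chosen with earlier results of these data known. Named genes are all member probes, list genes with a called probe, IDO2, ARNT, AHRR, TIPARP and IRF1, and the 10 profiles nearest to IDO1. Some genes that this rule or the lists hold are not reported here. Names came from the gene name column, and for 13 probes, those of NQO1 among them, from the description column. Positions are those of the scanner files (canFam3), and no sequence came from another source.

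Replicate numbers are shared by the groups. After removing group means, arrays of the same number correlated at 0.349, 0.162 and 0.296 over 26529 probes, each over 0.1, and arrays of different numbers at -0.329 to 0.238. The numbers were therefore treated as a possible pairing in the replicate block, while the main fit held no pairing. Alone replicate 2 correlated more with mixed replicate 3, at 0.238, than with mixed replicate 2, at 0.162, so the pairing is not certain. The numbers are also the array's position on its slide. Alternatives were quantile normalization, normexp with an offset of 50, spike-in scaling, other filters on dim probes, the methods' t-test, the log2 values as deposited, the replicate block and leaving out each array.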

Additional observations from a re-analysis of the deposited data

How the results depend on the processing

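The count of 2978 probes called was 2989 with quantile normalization, 3977 with normexp, 3039 with the filter on all 6 arrays and 2978 in the deposited table, but 865 with spike-in scaling (270 higher and 595 lower, against 1459 and 1519), 12 without a filter and 826 with the methods' t-test. Leaving out 1 array gave 7 to 7335 calls. The 2 member calls became 4 with normexp, 1 with the t-test, and 0 with spike-in scaling or without a filter, where 2 and 5 member probes passed an unadjusted p of 0.05. Leaving out 1 array gave 0 to 2 member calls, with 4 to 6 probes past the unadjusted threshold. The 12 calls among other pathway probes became 21 with normexp, 4 with spike-in scaling, 4 with the t-test and 0 without a filter, where 41 passed the unadjusted threshold, and 0 to 42 when 1 array was left out. The cause of these shifts was not tested. The replicate number as a block takes up any such pairing. It gave 2825 calls over all probes, 2 among members and 13 among other pathway probes. Of these 13, 7 were shared with the fit without the block. Among the members and these lists, the block changed no call other than those named beside their results. No member reversed past the threshold. No block for the slide could be fitted because both slides held a single group. TDO2, HAAO and CYP1A1 were too dim to compare.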
